A study of Mus musculus with 9 samples.

Results

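Of the 98 gene names beginning with Kcn on a mouse expression array, 55 had a probe well above background on at least 1 of 9 arrays of primary microglia, and the levels of these 55 potassium channel genes, read by 66 of 148 Kcn probes, are described here by channel class. The name Kcn covers the pores of potassium channels, their auxiliary subunits and a few regulators and noncoding RNAs. Members were taken by name and detection, and Kcn genes were chosen with earlier results of these data known. For detection, a probe had to be flagged well above background by the scanner software on most of its unflagged spots. Microglia came from the brains of fms-EGFP pups (P0-P1), in which EGFP marks cells of the macrophage lineage, after removal of the olfactory bulb and cerebellum, and all 3 groups were grown with GM-CSF from pooled tissue. Control microglia received no phagocytic stimulus. Ph3h and Ph24h microglia took up dying cells of SH-SY5Y, a neuroblastoma line of human origin, over 3 h and 24 h. The SH-SY5Y cells had been labeled with CM-DiI and killed with staurosporine. Each group had 3 arrays, from independent experiments. The control arrays were taken at 0 h, so that feeding and the time spent in culture cannot be told apart.

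Potassium channels let potassium leave a cell and thereby hold its membrane potential negative. Inward rectifiers and two-pore-domain channels are open near rest, voltage-gated channels open on depolarization, and calcium-activated channels open when intracellular calcium rises. Cultured microglia are known for a large inward rectifier current, for voltage-gated and calcium-activated currents that appear on activation, and, in tissue, for a two-pore-domain channel that sets the resting potential and the motility of their processes. Potassium efflux is also a known trigger of the NLRP3 inflammasome.

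The arrays carried 60-base probes, and the results turned on a small set of them. Shown here are the first 30 bases, in lower case, of the probes behind the main falls and rises and of the paired probes for Kcnn3 and Kcnc1, as the scanner files give them. Positions are those of the whole probe in the build the files name, mm9, with the strand.
Kcnj2 (chr11:110936203-110936262, plus strand): ctcaaaatcaagcctctaatggtattacac
Kcnj10 (chr1:174304062-174304121, plus strand): gaaacagaagaatctagggatgatttctct
Kcnk13 (chr12:101300491-101300550, plus strand): caacaaacattccagagtgtctctgggcct
Kcnn4 (chr7:25169184-25169782, plus strand): gccacatagctccacatgaactcacagaag
Kcnh2 (chr5:23825407-23825466, minus strand): tgatgactatgaataataaataattatcct
Kcnh8 (chr17:53092867-53092926, minus strand): atctattttcctttttgtgaaggcagagga
Kcnj14 (chr7:53073189-53073248, minus strand): attgaacatatgaggtcccagggacaccag
Kcnk12 (chr17:88145628-88145687, minus strand): aacgtcatctccatcctcatcaagcaggtg
Kcnn3, brighter probe (chr3:89476303-89476362, plus strand): gcatcttgcctctgtactgcttgctatttt
Kcnn3, dimmer probe (chr3:89465136-89466660, plus strand): aaacaccagaggaagttcctccaagctatc
Kcnc1, brighter probe (chr7:53682767-53682826, plus strand): tgtctggagactcacgagcgcttcaacccc
Kcnc1, dimmer probe (chr7:53688622-53688681, plus strand): gccttgccgtcttgtacgacagactttttt
The Kcnn4 probe and the dimmer Kcnn3 probe span more genome than their 60 bases, that is, they cross an intron. A gene with several probes was read from the one with the highest mean over the 9 arrays.

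Levels are given as scaled intensity, where 100 is the 75th percentile of all non-control probes on the same array. The 75th percentile itself corresponded to a processed signal of 356 to 473 on control arrays, 185 to 211 on Ph3h arrays and 156 to 161 on Ph24h arrays. The lowest scaled intensity that counted as well above background was therefore 3.1 to 4.16 on control, 4.70 to 6.58 on Ph3h and 6.98 to 7.67 on Ph24h arrays, and readings below these are background readings, not levels. Where a group was below background on all its arrays, the difference is given as "at least N-fold". It sets the brighter group's mean against the dim group's detection limit, or against its reading on an array where that was higher. Kcnj2 on Ph24h replicate 1 was such a reading, at 8.32 against a limit of 7.35. Fewer cells of a type and less RNA per cell cannot be told apart on these arrays. Of 12 microglial marker genes 11 were measured, all on every control array, with a summed scaled intensity of 122,000 to 127,000 on control, 162,000 to 176,000 on Ph3h and 102,000 to 106,000 on Ph24h arrays. Of the 11, 5 rose and 3 fell in Ph3h and 2 rose and 8 fell in Ph24h (of all genes tested, 27.5% rose and 25.9% fell in Ph3h and 29.5% and 33.1% in Ph24h by the same rule), and the fractalkine receptor Cx3cr1 fell by 4.55 on the log2 scale in Ph24h. The part of this shift in the channel falls was not tested. Sall1 was not above background on any array, and P2ry12 was below background on all Ph24h arrays. Replicates 1 and 2 of every group shared one slide, and replicate 3 of every group lay on another.

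Potassium channel genes were called in both directions after feeding, also within several of the classes. Inward rectifiers such as Kcnj2 and Kcnj10 and the two-pore-domain channels Kcnk13 and Kcnk6 fell under every scaling tried. Most voltage-gated pore subunits that were called rose relative to the 75th percentile, a direction that turned for several of them with other scalings. Every other scaling gave a lower median log2 fold change over all genes at both times, so rises could turn more readily than falls. Against control, 19 of the 55 genes were called higher (34.5%, against 27.9% of all 24,101 genes tested) and 10 were called lower (18.2%, against 25.9%) in Ph3h by limma at an adjusted p below 0.05. In Ph24h, 22 were higher (40.0%, against 29.9%) and 11 were lower (20.0%, against 33.2%). In either direction, 29 were called in Ph3h (52.7%, against 53.8%) and 33 of the 55 in Ph24h (against 63.1%). The rises include Kcnh6 at 3 h (1 gene, 1.82%, against 0.394% of all genes) and Kcnip4 and Kcnn2 at 24 h (2 genes, 3.64%, against 0.473%), which were below background on all 6 arrays compared. Leaving these out, 18 rose in Ph3h (32.7%, against 27.5%) and 20 in Ph24h (36.4%, against 29.5%), while the falls stayed at 10 and 11 (against 25.9% and 33.1%). The 3 fed arrays lay wholly above the controls for 24 genes in Ph3h (43.6%, against 35.2%) and 27 in Ph24h (49.1%, against 34.8%), and wholly below for 9 (16.4%, against 30.5%) and 10 (18.2%, against 36.5%). The median log2 fold change of the 55 genes was 0.53 at both times, against 0.07 in Ph3h and 0.01 in Ph24h over all genes tested. With groups below background set at their limits, the medians were 0.11 and 0.32, against 0 and 0 over all genes. The detection filter bears on these counts and medians. Through fed arrays alone, 7 members passed on all 3 arrays of a fed group and 10 on 1 or 2. Through control arrays alone, 5 passed on all 3 and 5 on 1 or 2. For such members the direction was largely set by the filter, which was the same for all genes tested. The splits into rises and falls also move with the scaling. Scaled to the median probe, 16 rose and 11 fell in Ph3h and 17 rose and 15 fell in Ph24h, and scaled to the spike-in control RNAs, a choice made after seeing the data, 10 rose and 21 fell in Ph3h and 13 rose and 23 fell in Ph24h. Of all called genes, 51.8% were higher in Ph3h and 47.4% in Ph24h at the 75th percentile, against 33.7% and 23.9% with median scaling and 9.08% and 12.9% with spike-in scaling. The median of all genes itself shifted to -0.18 and -0.50 with median scaling, to -0.88 and -0.92 with spike-in scaling and to -0.07 and -0.14 with quantile normalization. Across 6 scalings (the 75th percentile, quantile normalization, the median, normexp background correction with quantile normalization, the authors' value table and the spike-in RNAs), 9 Kcn genes were higher and 9 lower in Ph3h under all of them, and 10 were higher and 10 lower in Ph24h. The share of all genes called under all 6 was not computed. On the slide holding replicates 1 and 2 alone, 18 rose and 8 fell in Ph3h (against 24.8% and 20.7% of all genes) and 24 rose and 10 fell in Ph24h (against 27.6% and 27.9%). With the slide as a block the counts were 20 and 10 (against 28.0% and 25.7%) and 22 and 11 (against 29.9% and 32.9%). The slide of replicate 3, with 1 array a group, allows no test of its own.

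**Figure D1:**
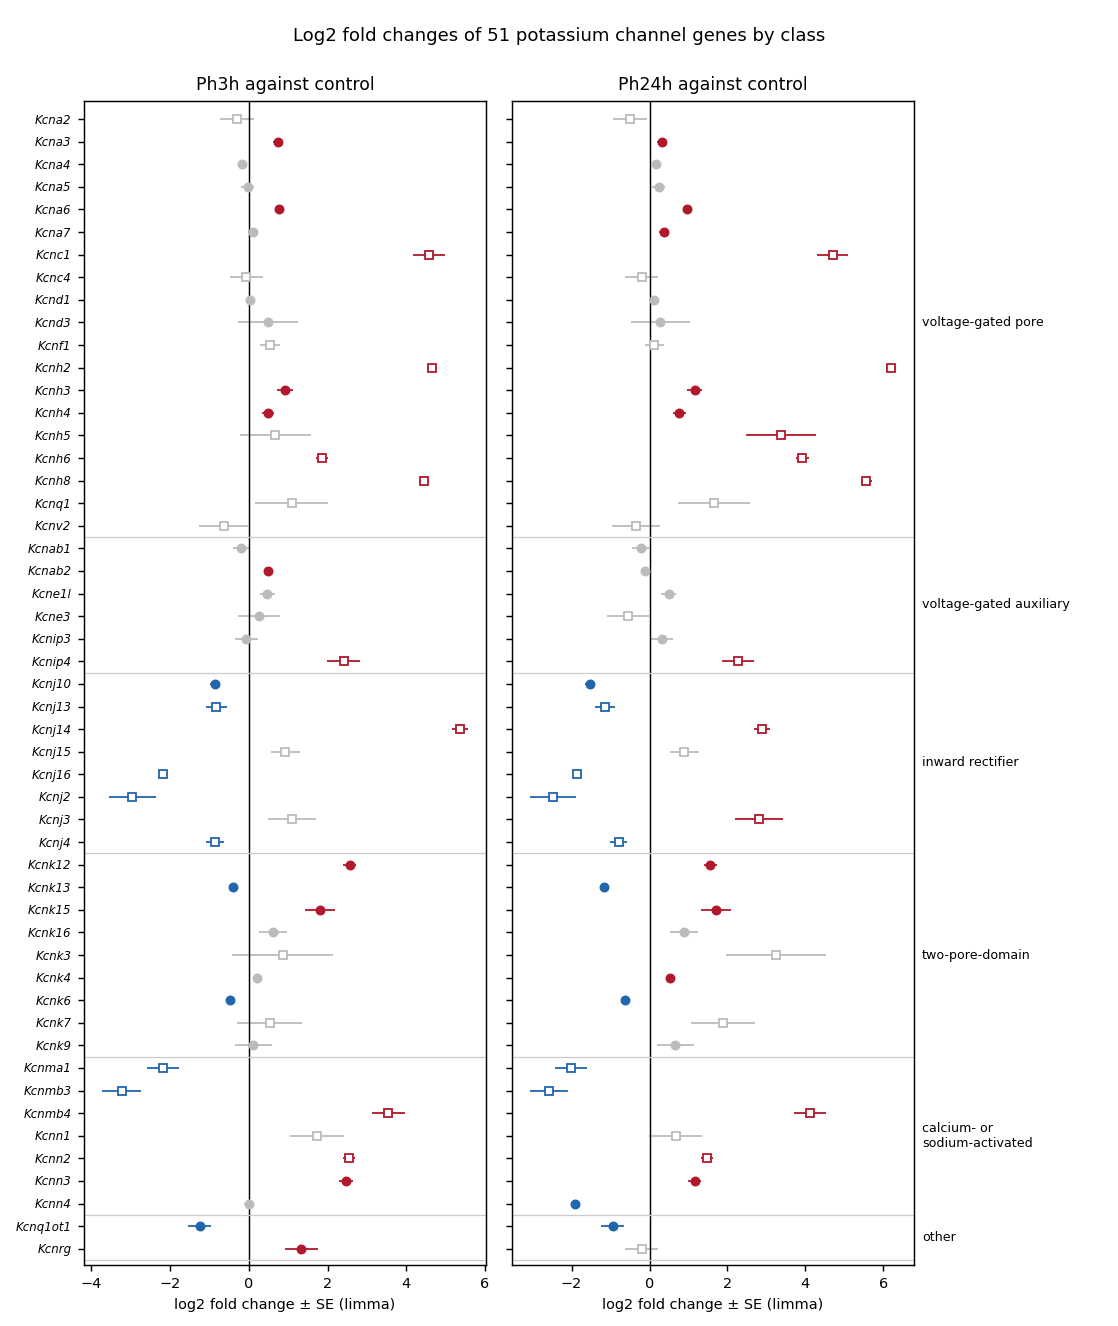
Log2 fold change (limma, scaled to the 75th percentile, ± SE) of 51 of the 55 genes in Ph3h and Ph24h against control, grouped by channel class; red and blue mark genes called higher and lower, gray those not called, and open squares genes below background on all arrays of at least 1 of the groups compared, whose plotted values are differences from background readings. On its brightest probe, no voltage-gated pore subunit was called lower at this scaling (with median scaling 1 was in Ph3h and 2 in Ph24h, with spike-in scaling 6 and 8). Of 8 inward rectifiers, 5 were lower at both times at every scaling tried. Over all genes, 25.9% in Ph3h and 33.1% in Ph24h were lower at the 75th percentile. With median scaling the shares were 35.3% and 50.9%, and with spike-in scaling 63.6% and 61.8%.

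Among inward rectifiers, 8 of 15 on the array were measured, 5 of them fell at both times, and 1 rose in Ph3h and 2 in Ph24h; this split was the same under all 6 scalings. Kcnj2, the channel behind the classical inward rectifier current of cultured microglia, read 25.5, 27.6 and 26.0 in control, 2.04, 3.34 and 5.75 in Ph3h, and 8.32, 6.88 and 1.89 in Ph24h. It was well above background on the 3 control arrays and on none of the 6 fed arrays, and the groups did not overlap. The fall was at least 4.70-fold in Ph3h (adjusted p = 0.00422) and at least 3.45-fold in Ph24h (adjusted p = 0.00817). Kcnj10, the glial channel known for clearing extracellular potassium, fell stepwise and stayed measurable throughout. It read 102, 106 and 88.1 in control, 53.1, 62.2 and 47.9 in Ph3h, and 37.6, 31.3 and 33.1 in Ph24h, with no overlap between any groups. The log2 fold change was -0.86 ± 0.12 (SE, adjusted p = 0.000796) in Ph3h and -1.53 ± 0.12 (adjusted p = 3.23e-05) in Ph24h, and the further step from Ph3h to Ph24h was -0.67 (adjusted p = 0.00337). Kcnj16, whose product joins that of Kcnj10 in the same channels, read 5.45, 5.26 and 6.59 in control, 1.11, 1.31 and 1.44 in Ph3h, and 1.59, 1.53 and 1.64 in Ph24h. All fed arrays were below background, and since the control level lay near the detection limit, only a fall of at least 1.024-fold in Ph3h can be stated (adjusted p = 7.13e-06) and no fold in Ph24h (adjusted p = 1.12e-05). Kcnj10 is also an astrocyte gene, and 8 of 9 astrocyte markers were measured. In Ph3h 1 rose and 1 fell (against 27.5% and 25.9% of all genes), and in Ph24h 1 rose and 2 fell (against 29.5% and 33.1%). Their summed scaled intensity was 1500 to 1930 on control, 1650 to 1880 on Ph3h and 1730 to 1770 on Ph24h arrays. Gja1 was not above background on any array and Gfap on 1 array of each group. The part of astrocytes in the fall of Kcnj10 was not tested.

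Kcnj4, a close relative of Kcnj2, read 10.3, 8.11 and 9.65 in control and 4.25, 4.76 and 6.68 in Ph3h. In Ph24h it read 4.37, 6.85 and 5.20, so that neither fed group overlapped the controls. The fall was at least 1.65-fold in Ph3h (adjusted p = 0.0127) and at least 1.27-fold in Ph24h (adjusted p = 0.0155), and the Ph24h call was lost without control replicate 1 (log2 fold change -0.72, adjusted p = 0.051) and on the slide holding replicates 1 and 2 alone (-0.74, adjusted p = 0.074). Kcnj13 was above background on 1 control array and no fed array, and was called lower at both times (adjusted p = 0.0303 and 0.00634), but its control level lay too near the detection limit to state a fold. The Ph3h call was lost without control replicate 1 or 2 or Ph3h replicate 1 or 3 (log2 fold change -0.59 to -0.82). The one inward rectifier that rose at both times was Kcnj14, a relative of Kcnj2 described in neurons. It read 0.953, 0.924 and 0.945 in control, 35.2, 39.7 and 40.9 in Ph3h, and 7.39, 4.89 and 9.17 in Ph24h. The rise was thus high at 3 h, when it was at least 10.5-fold (adjusted p = 1.33e-06), and had mostly gone by 24 h, when 1 of 3 arrays was above background and the rise was at least 1.89-fold (adjusted p = 1.87e-05). Kcnj3, a subunit of G protein-gated channels, was above background on 1 Ph24h array only.

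**Figure D2:**
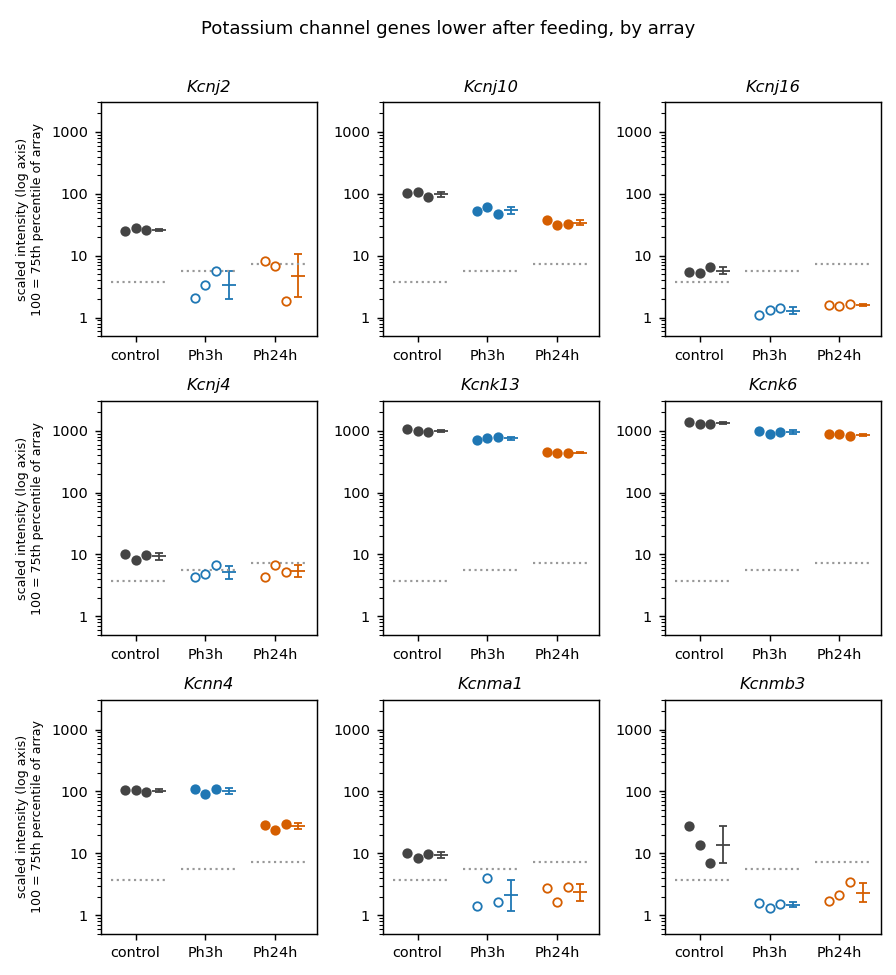
Scaled intensity (log axis) of 9 potassium channel genes in each array of the control, Ph3h and Ph24h groups; points are arrays, filled where all 3 arrays of the group were well above background, crosses with bars are the geometric mean ± SD of the log2 values (n = 3), and dotted lines are the mean detection limit of each group. Kcnj2, Kcnj16, Kcnj4, Kcnma1 and Kcnmb3 were above background on the 3 control arrays and on no fed array, whereas Kcnk13, Kcnk6, Kcnj10 and Kcnn4 stayed measurable.

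Of the two-pore-domain channels 9 of 14 were measured, and 2 fell and 2 rose in Ph3h, and 2 fell and 3 rose in Ph24h. These counts stand against 25.9% of all genes lower and 27.5% higher in Ph3h, and 33.1% and 29.5% in Ph24h. With median scaling 2 rose in Ph24h (against 15.9%). With spike-in scaling 3 fell and 1 rose at each time (against 63.6% and 6.35% in Ph3h and 61.8% and 9.18% in Ph24h). Kcnk13, the channel that sets the resting potential of microglia in brain tissue, read 1055, 974 and 969 in control and 717, 753 and 784 in Ph3h. In Ph24h it read 452, 438 and 433, and no group overlapped another. The log2 fold change was -0.41 ± 0.06 (SE, adjusted p = 0.000942) in Ph3h and -1.18 ± 0.06 (adjusted p = 3.85e-06) in Ph24h, a 2.27-fold fall. Kcnk6, which in macrophages carries the potassium efflux that activates NLRP3, read 1371, 1299 and 1297 in control, 1004, 893 and 964 in Ph3h, and 886, 872 and 810 in Ph24h. Its fall was 1.39-fold in Ph3h (adjusted p = 0.000737) and 1.54-fold in Ph24h (adjusted p = 0.000131), and the difference between Ph3h and Ph24h was not called (log2 -0.16, adjusted p = 0.101). Both genes were called lower at both times under all 6 scalings, with log2 fold changes in Ph24h from -2.11 to -1.03 for Kcnk13 and from -1.56 to -0.53 for Kcnk6.

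Kcnk12, the closest relative of Kcnk13, went the other way. It read 6.71, 6.96 and 5.24 in control, 43.1, 29.8 and 39.3 in Ph3h, and 16.5, 19.7 and 19.3 in Ph24h, above background on all 9 arrays and with no overlap between groups. The rise was 5.91-fold in Ph3h (adjusted p = 1.65e-05) and 2.95-fold in Ph24h (adjusted p = 0.000142), with a fall of 2.01-fold from Ph3h to Ph24h (adjusted p = 0.00222). Kcnk15 also rose, reading 3.14, 2.25 and 6.54 in control, 14.0, 12.02 and 11.7 in Ph3h, and 9.15, 11.6 and 15.0 in Ph24h. Only 1 control array was above background for it, and with spike-in scaling it was called at neither time. Kcnk4, a mechanically gated channel, rose 1.44-fold in Ph24h (adjusted p = 0.00401), but was called lower with spike-in scaling, where it fell by 0.40 on the log2 scale, and was called higher under 4 of 6 scalings. Kcnk3 and Kcnk7 were each above background on a single array, Ph24h replicate 1, at 115 and 14.4 against at most 4.33 and 1.59 on the other Ph24h arrays.

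In the calcium-activated class, 7 of 12 genes were measured, the pore and one auxiliary subunit of the large-conductance channel fell below background, and small- and intermediate-conductance channels moved apart. Kcnn4, the intermediate-conductance channel of microglia and macrophages, read 105, 106.8 and 98.1 in control, 111, 89.9 and 110 in Ph3h, and 28.8, 23.9 and 30.1 in Ph24h. Control and Ph3h overlapped and did not differ beyond their spread (log2 fold change -0.0042 ± 0.12 SE, adjusted p = 0.979), and Ph24h lay below both. The Ph24h fall was 3.76-fold against control (log2 -1.91 ± 0.12, adjusted p = 8.68e-06) and 3.75-fold against Ph3h (adjusted p = 1.43e-05), and it was called under all 6 scalings. Kcnn3, a small-conductance channel, read 16.6, 12.7 and 12.2 in control, 73.1, 75.9 and 78.9 in Ph3h, and 33.9, 35.03 and 24.1 in Ph24h. It rose 5.53-fold in Ph3h (adjusted p = 2.11e-05) and was 2.23-fold above control in Ph24h (adjusted p = 0.00074), with a fall of 2.48-fold between them (adjusted p = 0.000622). Its dimmer probe was above background on no control array, on all 3 Ph3h arrays, at 15.9, 12.99 and 11.2, and on 1 of 3 Ph24h arrays. The Ph24h rise of Kcnn3 was not called with spike-in scaling (log2 fold change 0.23, adjusted p = 0.286).

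Kcnma1, the pore of the large-conductance channel, read 10.23, 8.40 and 9.81 in control, 1.39, 4.06 and 1.63 in Ph3h, and 2.76, 1.63 and 2.86 in Ph24h on the 1 of its 4 probes that was above background. The fall was at least 1.69-fold in Ph3h (adjusted p = 0.00324) and at least 1.29-fold in Ph24h (adjusted p = 0.00387), and the Ph3h call was lost on the slide of replicates 1 and 2 alone (log2 fold change -1.96, adjusted p = 0.058). By the deposited value table Kcnma1 was not called and the direction turned (log2 fold change 0.32 in Ph3h and 0.36 in Ph24h), as it did without the background filter (0.61 and 0.92, the latter called higher), both read from another of its probes. Kcnmb3, an auxiliary subunit of that channel, read 27.7, 13.7 and 6.87 in control, 1.58, 1.33 and 1.51 in Ph3h, and 1.69, 2.10 and 3.43 in Ph24h. Despite the wide spread among control arrays the groups did not overlap, and the fall was at least 2.45-fold in Ph3h (adjusted p = 0.00104) and at least 1.88-fold in Ph24h (adjusted p = 0.00262). Kcnmb4, the auxiliary subunit typical of neurons, was the reverse: 0.957, 2.595 and 3.36 in control, 23.5, 22.2 and 25.1 in Ph3h, and 34.98, 32.5 and 38.2 in Ph24h. It was above background on no control array and on all 6 fed arrays, a rise of at least 6.44-fold (adjusted p = 0.000287) and at least 9.59-fold (adjusted p = 9.97e-05). Kcnn2 was above background on 1 Ph3h array only.

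The voltage-gated pore subunits made up the largest class, with 23 of 40 genes measured. At the 75th percentile 9 rose in Ph3h and 13 in Ph24h and none fell on its brightest probe, leaving out Kcnh6 at 3 h, which was below background in both groups. Of all genes tested, 27.5% rose and 25.9% fell in Ph3h and 29.5% and 33.1% in Ph24h. A dimmer Kcnd1 probe, above background on 3 control, 2 Ph3h and no Ph24h arrays, was called lower in Ph24h (log2 fold change -1.655, adjusted p = 0.00163 by limma over probes). Neither of its other kept probes was called against control. A dimmer probe of Kcna7 also fell, as given below. With normexp and quantile normalization 12 rose and 1 fell in Ph24h (against 24.8% and 36.5% of all genes called higher and lower). With median scaling 8 rose and 1 fell in Ph3h (against 17.9% and 35.3%) and 9 rose and 2 fell in Ph24h (against 15.9% and 50.9%). With spike-in scaling 3 rose and 6 fell in Ph3h (against 6.35% and 63.6%) and 7 rose and 8 fell in Ph24h (against 9.18% and 61.8%). Under every scaling 3 rose in Ph3h, Kcnh2, Kcnh8 and Kcnc1, and 6 rose in Ph24h, among them the same 3 and Kcnh6.

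Kcnh2, the pore of the rapid delayed rectifier of the heart, had the highest lower bound of any member in Ph24h. It read 1.24, 1.10 and 1.497 in control, 34.0, 31.6 and 30.1 in Ph3h, and 87.4, 102 and 90.3 in Ph24h. The rise was at least 8.69-fold in Ph3h (adjusted p = 2.57e-07) and at least 25.4-fold in Ph24h (adjusted p = 4.73e-08), and Ph24h was 2.92-fold above Ph3h (adjusted p = 4.81e-05). Kcnh8, of the same ether-a-go-go family, read 0.912, 0.730 and 0.846 in control, 16.2, 19.5 and 18.7 in Ph3h, and 40.1, 33.5 and 44.7 in Ph24h. It rose at least 4.93-fold (adjusted p = 4.51e-07) and at least 10.69-fold (adjusted p = 1.12e-07), with a 2.17-fold step between the fed groups (adjusted p = 0.000431). Kcnh6, a close relative of Kcnh2, was detected in Ph24h only, at 16.0, 11.8 and 12.7, a rise of at least 3.66-fold (adjusted p = 1.06e-06). All 3 genes were above background on no control array.

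Kcnc1, a fast channel of rapidly firing neurons, read 0.874, 0.653 and 2.22 in control, 26.6, 28.6 and 23.2 in Ph3h, and 27.5, 31.0 and 25.9 in Ph24h. It rose at least 7.10-fold in Ph3h (adjusted p = 6.88e-05) and at least 7.66-fold in Ph24h (adjusted p = 4.49e-05), and the fed groups overlapped. Its dimmer probe was above background on 1 control array and on no fed array, at 5.21 to 8.62 in Ph3h and 5.604 to 7.55 in Ph24h. The 2 probes thus differed in whether Kcnc1 was detected after feeding. Kcnh5 was above background on 2 Ph24h arrays, at 23.4 and 13.8, and at 1.55 on the third.

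**Figure D3:**
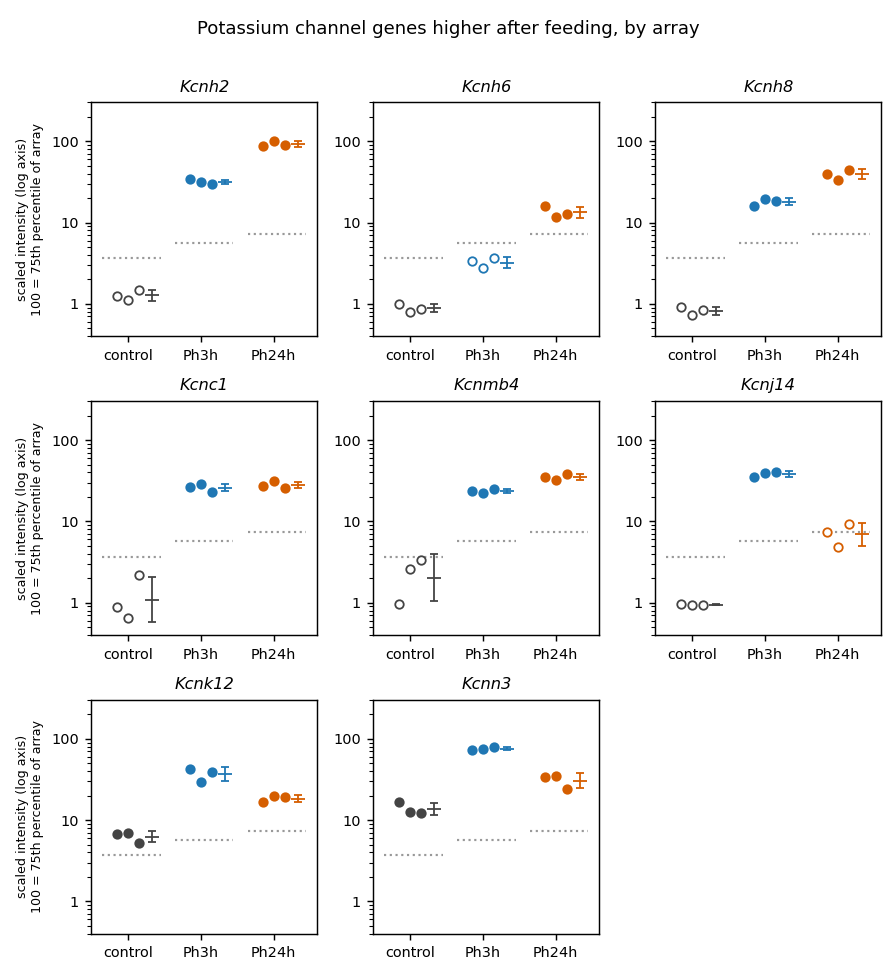
Scaled intensity (log axis) of 8 potassium channel genes that rose after feeding, in each array of the 3 groups; symbols as in the plot of the falling genes, open points marking groups without all 3 arrays above background. Kcnh2, Kcnh8, Kcnc1 and Kcnmb4 were below background on the 3 control arrays and above it on all 6 fed arrays, and Kcnj14, Kcnk12 and Kcnn3 were higher in Ph3h than in Ph24h.

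Most measured markers of the fed cells also rose. Of 35 genes listed as markers of SH-SY5Y neuroblastoma cells, 28 were measured, 20 rose and 1 fell in Ph3h, and 22 rose and 2 fell in Ph24h. Among all genes tested, 27.5% rose and 25.9% fell in Ph3h and 29.5% and 33.1% in Ph24h. Gata3 fell in Ph3h (log2 fold change -1.588), Slc18a1 (-2.165) and Rtn1 (-1.331) fell in Ph24h, and Chgb and Tubb3 were called at neither time. Their summed scaled intensity was 985 to 1140 on control, 164,000 to 177,000 on Ph3h and 241,000 to 277,000 on Ph24h arrays. On the control arrays 14 of the 28 were below background, among them Hand2 and Isl1, which were above background on all 6 fed arrays. The part of these cells in the rises of Kcnh2, Kcnh8, Kcnh6, Kcnc1, Kcnmb4, Kcnj14, Kcnk12, Kcnn3 and the other rising channels was not tested. Hand2, Isl1, Chgb and Tubb3 were chosen as examples after their values were seen.

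The voltage-gated channels measured in control microglia moved less. Kcna3, the delayed rectifier known from activated microglia, read 23.8, 21.5 and 21.4 in control, 31.6, 40.8 and 40.1 in Ph3h, and 29.8, 25.3 and 28.3 in Ph24h. It rose 1.68-fold in Ph3h (adjusted p = 0.00126) without overlap, and the direction turned with spike-in scaling (log2 fold change -0.19). Its Ph24h rise of 1.25-fold (adjusted p = 0.0454) was lost without any 1 of control replicates 1, 2 and 3, Ph24h replicates 1 and 3 or Ph3h replicate 3 (log2 fold change 0.27 to 0.37), and was called under 1 of 6 scalings. It was 0.04 to 0.06 and not called with quantile normalization, with normexp or by the deposited table, became -0.19 with median scaling (not called) and was called lower with spike-in scaling (-0.61). Kcna5, another delayed rectifier of microglia, read 14.3 to 17.5 in control and Ph3h together and 14.7, 21.3 and 21.9 in Ph24h, and the groups overlapped. Kcna2 was above background on 1 control array only. Kcna4 read 1426, 1430 and 1533 in control, 1481, 1133 and 1299 in Ph3h, and 1713, 1698 and 1538 in Ph24h, and was called against control at neither time. Kcna7 rose 1.30-fold in Ph24h on its brighter probe (log2 0.38, adjusted p = 0.0359) and fell on its dimmer one (log2 -1.01, adjusted p = 0.0336), so that its direction depended on the probe, and also turned with median (-0.13) and spike-in scaling (-0.55). The rise on the brighter probe was not called without control replicate 1 or 2, Ph3h replicate 1 or any Ph24h replicate (log2 0.29 to 0.40).

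Kcna6, Kcnh3 and Kcnh4 rose 1.40- to 1.89-fold in Ph3h and 1.70- to 2.23-fold in Ph24h. With spike-in scaling none of these was called higher at either time, and Kcnh4 was called lower in Ph3h (log2 fold change -0.45). The Ph3h rise of Kcnh4 was not called without any 1 of the Ph3h replicates (log2 fold change 0.45 to 0.54).

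**Figure D4:**
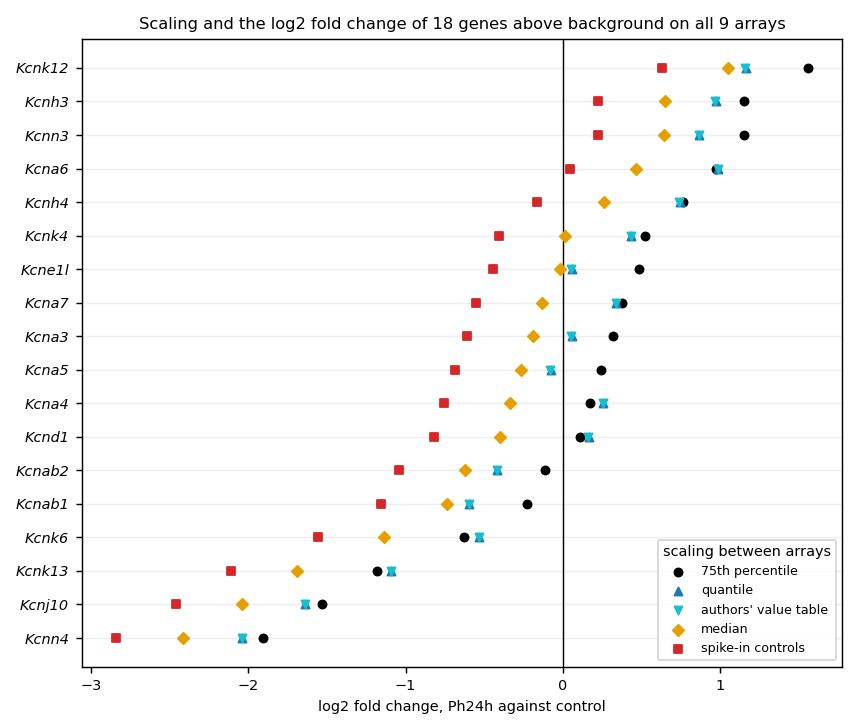
Log2 fold change in Ph24h against control of 18 of the 19 genes above background on all 9 arrays, under 5 ways of scaling the arrays to each other. Kcnn4, Kcnj10, Kcnk13 and Kcnk6 lay below 0, as did Kcnab1 and Kcnab2, and Kcnk12, Kcna6, Kcnh3 and Kcnn3 lay above 0 under all 5, whereas Kcna3, Kcna4, Kcna5, Kcna7, Kcnd1, Kcne1l, Kcnh4 and Kcnk4 changed sign between scalings.

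Of the voltage-gated auxiliary subunits 6 of 12 were measured, and 2 rose in Ph3h and none was called in Ph24h, apart from Kcnip4, below background on all 6 arrays then. The shares over all genes were 27.5% higher and 25.9% lower in Ph3h, and 29.5% and 33.1% in Ph24h. With spike-in scaling 1 rose and 3 fell in Ph3h (against 6.35% and 63.6% of all genes) and 3 fell in Ph24h (against 61.8%). With median scaling or normexp and quantile normalization 2 fell in Ph24h (against 50.9% and 36.5%). Kcnab2, the cytoplasmic subunit that binds delayed rectifiers, read 21.3, 20.7 and 19.5 in control, 26.6, 30.6 and 29.0 in Ph3h, and 19.2, 19.7 and 17.8 in Ph24h. It rose 1.40-fold in Ph3h (adjusted p = 0.00115) and was not called against control in Ph24h (log2 -0.11, adjusted p = 0.222), where 2 of 3 arrays lay below the lowest control, a fall of 1.52-fold between the fed groups (adjusted p = 0.000504). Under the other 5 scalings Kcnab2 was called lower in Ph24h, with log2 fold changes of -1.04 to -0.20. Its Ph3h rise was called under 4 of 6 scalings and turned with spike-in scaling, where it was called lower (-0.45). Kcne3, a small single-pass subunit, was above background on all control arrays, 2 Ph3h arrays and no Ph24h array, with overlapping readings (6.05, 9.15 and 5.94 in control and 1.95, 6.62 and 8.02 in Ph24h). Among the members outside these classes, Kcnq1ot1, the noncoding RNA of the imprinted Kcnq1 region, read 19.9, 26.6 and 29.1 in control, 11.6, 9.35 and 10.6 in Ph3h, and 12.3, 8.78 and 19.9 in Ph24h. It fell 2.37-fold in Ph3h without overlap (adjusted p = 0.00874). The Ph24h fall of 1.92-fold (adjusted p = 0.0245) had overlapping groups and was not called without control replicate 2 or 3 or Ph24h replicate 1 or 2 (log2 fold change -0.67 to -0.91). Kcnrg, which codes for a regulator of voltage-gated channel assembly, rose in Ph3h (log2 fold change 1.34, adjusted p = 0.0309), a call lost without any 1 of control replicates 1 and 2 and the 3 Ph3h replicates (1.12 to 1.46), and under 4 of 6 scalings.

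Between the fed groups, 6 of the 55 genes were higher in Ph24h than in Ph3h (10.9%, against 20.4% of all genes tested) and 10 were lower (18.2%, against 24.0%), in all 16 (29.1%, against 44.4%). Each of the 16 was detected in 1 or both fed groups (for all genes, 19.9% were so called higher, 23.8% lower, and 0.627% called with both groups below background). The groups did not overlap for 14 genes higher in Ph24h (25.5%, against 28.7%) and 11 lower (20.0%, against 28.2%). The 6 were all voltage-gated pore subunits, and Kcnh2, Kcnh8 and Kcnh6 among them were called at each of the 6 scalings. The 8 called lower under each of them were Kcnn4, Kcnj14, Kcnk12, Kcnn3, Kcnk13, Kcnj10, Kcnab2 and Kcnrg. Against control, on the brightest probe of each gene, 35 of the 55 genes were called at 1 or both times (63.6%, against 73.3% of all genes tested) and 20 at neither, among them Kcna2, Kcna4, Kcna5, Kcnc4, Kcnd1, Kcnd3, Kcnf1, Kcnq1 and Kcnv2 of the voltage-gated pores, Kcnab1, Kcne1l, Kcne3 and Kcnip3 of their auxiliary subunits, and Kcnj15, Kcnk3, Kcnk7, Kcnk9, Kcnk16 and Kcnn1. Detection followed 6 patterns over the 55 genes. The shares of all genes with these patterns were not computed, so no trait of potassium channel genes is read from them. The scaled detection limit was also higher on fed than on control arrays. On all 9 arrays 19 genes were above background, 5 were on the 3 control arrays and no fed array (Kcnj2, Kcnj4, Kcnj16, Kcnma1 and Kcnmb3), and 7 were on no control array and all 3 arrays of a fed group (among them Kcnc1, Kcnh2, Kcnh6, Kcnh8, Kcnj14 and Kcnmb4). A further 10 were on no control array and on at most 2 arrays of a fed group, 5 were on 1 or 2 control arrays only, and 9 were mixed. A moderated F test over the 3 groups called 34 of the 55 (61.8%), against 70.5% of all genes.

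Other genes of potassium transport were read from lists without Kcn names, whose counts stand against 27.5% of all genes higher and 25.9% lower in Ph3h and 29.5% and 33.1% in Ph24h. Of 16 partners of channel complexes 11 were measured, and 7 rose and 1 fell at both times. The largest rise was that of Abcc8, the sulfonylurea receptor that joins inward rectifiers to form ATP-sensitive channels, by 4.48 in Ph3h and 5.08 in Ph24h on the log2 scale (adjusted p = 1.75e-06 and 7.43e-07). Dpp6, an auxiliary subunit of transient channels of neurons, rose by 1.12 and 1.95. Of 13 sodium-potassium ATPase genes 11 were measured, with 2 higher and 3 lower in Ph3h and 4 higher and 1 lower in Ph24h; Atp1b1, a subunit above background on 1 control array, rose by 8.29 and 8.30. Of 13 cation-chloride cotransporters and their kinases 9 were measured, with 5 higher and 2 lower in Ph3h and 4 higher and 3 lower in Ph24h, and Slc12a2, which carries sodium, potassium and chloride inward, fell by 0.91 and 1.19. All 8 genes of potassium efflux sensing were measured, with 4 higher and 1 lower in Ph3h and 2 higher and 6 lower in Ph24h. P2rx7, the ATP-gated channel that opens the way for potassium efflux, fell by 1.10 and 1.42, and Nlrp3 and Il1b rose, by 3.90 and 4.497 and by 3.22 and 4.98.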

How the data were processed

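Total RNA of 9 microglia cultures was labeled with Cy3 and hybridized to one-color 60-base arrays. The authors extracted the deposited intensity values with Agilent Feature Extraction 10.7.3.1. The deposited value table of log2 values, which the methods describe as normalized in GeneSpring, served only as an alternative. Here each array's log2 processed signal was centered on the 75th percentile of its non-control probes, flagged spots were left out, spots of a probe were averaged, and probes well above background on at least 1 array were kept. Groups were compared with limma 3.58.1 (R 4.3.3) on all 24,101 genes and 9 arrays, adjusted by Benjamini-Hochberg, calling adjusted p below 0.05. Under an exact permutation test, 3 arrays against 3 cannot reach p below 0.10. The script was tested on simulated data. No array had saturated spots, and 3 arrays a group limit the precision. The named genes are the 6 strongest rises and the 6 strongest falls per time among calls without overlap of fed and control arrays (dim groups at their bound), genes called in opposite directions at the 2 times, a list of channels known from microglia and macrophages, genes detected on no control array and all 3 arrays of a fed group or the reverse, and genes with kept probes called in opposite directions. Others were named after their values were seen. Members and gene lists were chosen with earlier results of these data known. Besides the partner, microglial, astrocyte and SH-SY5Y lists, 3 marker lists were read: oligodendrocyte lineage (8 of 9 measured, 3 higher and 2 lower in Ph3h, 3 and 3 in Ph24h), fibroblast (5 of 6, 1 and 0, 2 and 0) and endothelial (4 of 6, 2 and 2, 1 and 2). By the same rule, 27.5% of all genes were higher and 25.9% lower in Ph3h, and 29.5% and 33.1% in Ph24h. Alternatives changed the scaling, background correction, filter, probe choice, block and arrays. Some genes are counted but not reported here by name.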

Additional observations from a re-analysis of the deposited data

Results flagged for a closer look

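The log2 fold change against control differed between 24 h and 3 h for the potassium channel genes given here by limma, and each value is the 24 h effect minus the 3 h effect, both taken against the same control arrays. It was negative for Kcnj14 (-2.48), Kcnn4 (-1.91), Kcnrg (-1.53), Kcnn3 (-1.31), Kcnn2 (-1.06), Kcnk12 (-1.004), Kcnk13 (-0.77), Kcnj10 (-0.67), Kcnab2 (-0.60) and Kcna3 (-0.43). It was positive for Kcna4 (0.35), Kcnh8 (1.12), Kcnh2 (1.55), Kcnh6 (2.06) and Kcnh5 (2.71). Kcnh6 and Kcnh5 were below background on all Ph3h arrays and Kcnrg on all Ph24h arrays, so their values are differences from background readings, and only differences of at least 2.39-fold, 1.42-fold and 1.32-fold can be stated. Leaving out single arrays ended the call for some of them. Kcna3 was not called without Ph3h replicate 2 or 3 or Ph24h replicate 2 (-0.36 to -0.37), nor Kcna4 without Ph3h replicate 2 or 3 or Ph24h replicate 1 or 2 (0.25 to 0.35). Kcnrg was not called without Ph3h replicate 2 or Ph24h replicate 2 or 3 (-1.30 to -1.34). Kcnh5 was not called without any 1 of the 8 arrays other than Ph24h replicate 3 (1.93 to 2.82), and without that array, the one below background in its group, the value was 3.88. Kcnn2 was above background on 1 Ph3h array only, and with the dim groups at their limits no fold can be given for it between the fed groups.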

How the results depend on the processing

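Counts of called Kcn genes stayed within 1.5 times the main counts under most alternatives. Without the background filter, 46 rose in Ph3h and 53 in Ph24h, over all 98 names (against 35.9% and 42.6% of all genes). With spike-in scaling, added after seeing the data, 10 rose and 21 fell in Ph3h (against 6.35% and 63.6%). By the same scaling 13 rose and 23 fell in Ph24h (against 9.18% and 61.8%). Between the fed groups 3 were higher with median scaling and 12 with normexp and quantile normalization, where the main run had 6. The shares of all genes higher were 10.3%, 23.1% and 20.4% in that order. No pairing by replicate number was detected (correlations of same-numbered arrays' deviations -0.0571 to 0.0413), which does not exclude one. With the replicate block 18 rose and 10 fell in Ph3h (against 27% and 25% of all genes) and 20 rose and 11 fell in Ph24h (against 29% and 32.3%). In Ph24h against Ph3h, 5 were then higher and 8 lower (against 18.9% and 22.8%). Leaving out 1 array, 16 to 22 rose and 9 to 10 fell in Ph3h (against 24.7% to 28.5% and 22.7% to 26.1% of all genes). In Ph24h 19 to 24 rose and 10 to 11 fell (against 26.5% to 29.6% and 30% to 33.1%). Between the fed groups 4 to 8 were higher and 8 to 10 lower (against 17.4% to 20% and 21.5% to 23.3%). The methods' regression on time called 31 genes, against 34 by the F test. Among the named genes, these log2 fold changes turned sign, and the cause was not tested: with spike-in scaling Kcna3 (-0.19 in Ph3h, -0.61 in Ph24h), Kcna5 (-0.69 in Ph24h), Kcna7 (-0.83 and -0.55), Kcnab2 (-0.45 in Ph3h) and Kcne3 (-0.69 in Ph3h); with median scaling Kcna3 (-0.19 in Ph24h), Kcna5 (-0.27 in Ph24h) and Kcna7 (-0.13 at both times). Kcna5 in Ph24h was -0.0768 after quantile normalization, -0.0395 when normexp correction came first, and -0.0803 by the deposited value table. With the mean over probes Kcna7 was -0.32 in Ph24h and Kcne3 -0.16 in Ph3h. Kcnma1 was 0.61 and 0.92 without the filter and 0.32 and 0.36 by the deposited value table, since another probe, below background, then stands for the gene. On the slide of replicates 1 and 2 alone, Kcna2 was 0.36 in Ph3h and 0.0281 in Ph24h and Kcna5 0.0685 in Ph3h. Kcnn4 in Ph3h, at -0.0042, was 0.00108 after quantile normalization, 0.0364 when normexp correction came first and 0.000838 by the deposited table. With 1 array left out, Ph3h values ran from -0.54 to 0.0725 for Kcna2 (above 0 without control replicate 3), from -0.10 to 0.0464 for Kcna5 (above 0 without control replicate 2 or Ph3h replicate 3) and from -0.0561 to 0.0933 for Kcnn4 (above 0 without control replicate 1 or 2 or Ph3h replicate 2), and Ph24h values from -0.94 to 0.0788 for Kcne3 (above 0 without Ph24h replicate 1). Genes near the detection limit have only bounds, and the scaled detection limit was higher on fed than on control arrays.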

Other observations

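A Kcnj6 probe printed in 10 spots was well above background on some but not most of its spots on at least 1 array, and Kcnj6 is not counted among the 55 genes; counted by any single spot, 67 Kcn probes would be above background in place of 66.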
